A study of Sus scrofa with 11 samples.

Results

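Extracellular vesicles (EV), membrane particles that cells release and that carry RNA and protein, were injected into ischemic heart muscle of pigs on a high fat diet, and this injection was compared with vehicle. The samples were chosen by their titles: 3 arrays labelled HFD+EV and 2 labelled HFD, 5 of the 11 arrays in the series. In all 4 groups, intact male Yorkshire swine carried an ameroid constrictor on the left circumflex coronary artery, a swelling collar that narrows the vessel over weeks, and ate their diet for 12 weeks. The HFD+EV pigs ate the high fat diet and had EV injected into the ischemic muscle, the HFD pigs ate the same diet and had the vehicle, and ND+EV (3 arrays) and ND (3 arrays) are the same injections on a normal diet. Tissue of the ischemic zone of the left ventricle was collected 5 weeks after the injection. The source of the EV and their dose are not stated in the labels, the titles call the arrays of a group biological replicates, and no label ties an array to a named animal. P-values therefore measure the spread between these arrays.

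The series' title names EV-mediated angiogenesis and its inhibition by a high fat diet as its subject. In chronically ischemic heart muscle, new vessels grow under ligands such as vascular endothelial growth factor, which act on receptor kinases of endothelial cells. Stretched or failing ventricular muscle turns on a stress programme that includes the natriuretic peptides and proteins of the Z-disc and intercalated disc. Type I interferons, made after cells sense foreign or misplaced nucleic acid, switch on a broad set of antiviral genes in nearly every cell type.

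Values are log2 signal per probe set, as the authors deposited them, so a difference of 1 is a 2-fold difference in signal. Array medians lay between 4.36 and 4.48. HFD+EV replicate 1 stood apart from the other HFD+EV arrays: 578 and 547 of 20668 probe sets differed by at least 1 log2 unit between it and replicates 2 and 3, against 243 between replicates 2 and 3. The HFD arrays differed from each other at 355 probe sets by that measure. Genes that mark ventricular muscle were high on every array, as labelled, with means over 6 markers of 11.24, 11.39 and 11.40 on the HFD+EV arrays, and 11.43 and 11.24 on the HFD arrays. In such bulk tissue, fewer cells of a type and less RNA per cell cannot be told apart.

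No probe set passed an adjusted p of 0.05 in HFD+EV against HFD with limma, which is 0% of the 20668 tested, and the smallest adjusted p was 0.341. At an unadjusted p under 0.05 there were 563 probe sets higher in HFD+EV (2.72%) and 583 lower (2.82%). The median standard error of a log2 difference was 0.184. The statements that follow are therefore measured values and counts, and every gene named had an adjusted p above 0.05 in this fit. A gene is called apart where all 3 HFD+EV arrays lie on one side of both HFD arrays. By this measure 2517 probe sets were apart and higher (12.2%) and 2282 apart and lower (11%), and with a fold of at least 1.5 the counts were 322 (1.56%) and 257 (1.24%). Of these, 229 higher and 143 lower probe sets do not carry 1 gene symbol in the platform annotation.

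Interferon-stimulated genes were higher in HFD+EV than in HFD. All 28 of the listed genes that were tested had a higher mean, and their median log2 difference was 0.65. Over all 9738 named genes 46% were higher and 54% lower, and the median difference was -0.02. The list held 49 symbols, of which 29 were on the array and 1 (OASL) fell below the signal filter. It was chosen with earlier results of these data known. Its counts beside the shares over all named genes are therefore descriptions and not independent support. None of the 28 passed the adjusted threshold, and 19 had an unadjusted p under 0.05, against 1.94% of all named genes. The mean over the 28 genes was 5.76, 5.77 and 5.67 on the HFD+EV arrays, against 5.05 and 5.06 on the HFD arrays. The lowest HFD+EV array therefore lay above the highest HFD array, and the HFD arrays were nearly equal.

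The arrays were apart for 22 of the 28 genes, against 10.7% of all named genes. MX2, an antiviral GTPase, had signals of 6.65, 7.22 and 6.94 on the HFD+EV arrays, against 5.16 and 5.21 on the HFD arrays, a difference of 1.75 ± 0.33 (SE, limma adjusted p = 0.427). LGALS9, which encodes the sugar-binding lectin galectin-9, had signals of 6.97, 7.74 and 7.81 in HFD+EV, against 6.31 and 6.04 in HFD, a difference of 1.33 ± 0.27 (limma adjusted p = 0.529). Both genes were high on all 3 HFD+EV arrays, with no overlap between the groups. ISG12(A), an interferon-inducible gene, had signals of 6.30, 6.65 and 6.28 in HFD+EV, against 5.49 and 4.82 in HFD, a difference of 1.25 ± 0.22 (limma adjusted p = 0.341, equal to the smallest of the comparison). The groups did not overlap for it either, and the HFD arrays differed from each other by more than the HFD+EV arrays did.

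The enzymes that attach and remove the ubiquitin-like protein ISG15 were higher together. UBA7, which activates ISG15 for attachment, had signals of 6.05, 5.78 and 5.76 in HFD+EV, against 4.50 and 5.01 in HFD, a difference of 1.11 ± 0.24 (limma adjusted p = 0.564). USP18, which removes ISG15 and damps interferon receptor signalling, had signals of 5.74, 5.01 and 5.37 in HFD+EV, against 4.42 and 4.39 in HFD, a difference of 0.97 ± 0.27 (limma adjusted p = 0.653). HERC5, an ISG15 ligase, differed by 0.70. The groups did not overlap for any of the 3.

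Members of the list that bind double-stranded RNA varied in size. EIF2AK2, the kinase PKR that stops translation on binding such RNA, had signals of 6.72, 6.36 and 6.69 in HFD+EV, against 5.59 and 5.84 in HFD, a difference of 0.88 ± 0.22 (limma adjusted p = 0.575). IFIH1, the sensor MDA5, had signals of 5.49, 5.63 and 5.84 in HFD+EV, against 4.93 and 4.75 in HFD, a difference of 0.81 ± 0.19 (limma adjusted p = 0.564). Every HFD+EV array was above every HFD array for both, and also for the nucleic acid sensors DHX58 (0.68) and ZBP1 (0.59). The groups overlapped for OAS1 (0.28), an enzyme that such RNA activates, and for the endosomal sensor TLR3 (0.11), which is on the list of nucleic acid sensing. IFIT1, which binds foreign RNA ends, had signals of 5.95, 6.05 and 5.68 in HFD+EV, against 5.02 and 5.01 in HFD, a difference of 0.88 ± 0.19 (limma adjusted p = 0.564).

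The 6 listed genes whose arrays were not apart were IFIT3, OAS1, OAS2, IFITM1, TRIM21 and IRF7. OAS2, an enzyme that makes the messenger activating RNase L, had signals of 9.32, 8.29 and 7.85 in HFD+EV, against 8.12 and 7.81 in HFD, a difference of 0.52 ± 0.53 (limma adjusted p = 0.966). HFD+EV replicate 3 lay between the HFD arrays for it, while the 6 ND+EV and ND arrays had signals from 5.14 to 6.94. IRF7, a transcription factor of the interferon loop, differed by 0.17 and RSAD2, which encodes viperin, by 0.19. The size of the difference thus varied within the list from 0.17 to 1.75, and the plot of interferon-stimulated genes shows each array.

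**Figure D1:**
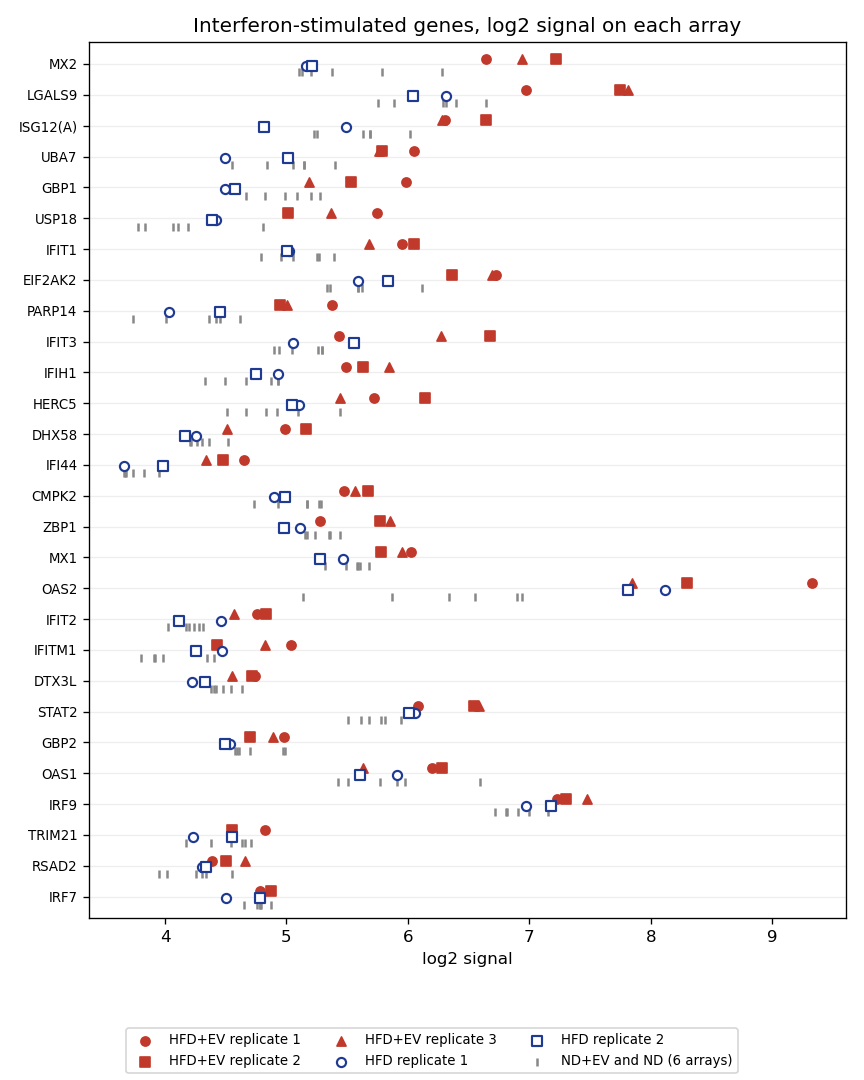
Log2 signal (x axis) of the 28 interferon-stimulated genes tested, ordered by their difference; red symbols are the 3 HFD+EV arrays, open blue symbols the 2 HFD arrays, grey ticks the 6 ND+EV and ND arrays. MX2 has the widest difference (1.75), and for 16 genes all 3 red symbols lie above every other array.

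For 16 of the 28 genes, the 3 HFD+EV arrays lay above all 8 other arrays of the series, against 1.13% of all named genes (110 genes) and 0.924% of all probe sets. The 16 made up 57.1% of the list and 14.5% of those 110. For 4 other genes of the list (DTX3L, ZBP1, GBP1 and GBP2), both HFD arrays lay below all 9 others, against 4.31% of all named genes. Neither held for the remaining 8. The list's mean on the normal diet arrays was 5.001, 5.16 and 5.07 in ND+EV, against 4.99, 5.04 and 4.94 in ND, and its median EV difference on the normal diet was 0.05. For MX2 the EV difference under the high fat diet exceeded that under the normal diet by 1.65 ± 0.44, with a limma adjusted p of 0.572 for this difference of differences. No probe set passed that test (0% of 20668), 8.42% had an unadjusted p under 0.05, and 0.572 was the smallest adjusted p.

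Lists next to this one in the pathway had smaller medians. Of 11 genes of nucleic acid sensing, 8 were higher with a median of 0.11, but 4 of these genes are also on the interferon list, and the other 7 had 4 higher and a median of 0.09. Leaving out HFD replicate 2 gave a median of 0.06 for the 11, and leaving out replicate 1 gave 0.27. Leaving out the lowest 50% of probe sets gave 0.44, but over fewer genes, since low-signal members of the list then drop out. Of 9 genes of interferon receptors and their signalling, 5 were higher and 4 lower, and the median was 0.04. The 2 of these 9 whose arrays were apart, STAT2 (0.37) and IRF9 (0.26), are also on the interferon list. Antigen presentation by MHC class I had 13 of 15 genes higher with a median of 0.18, and 6 apart, against 10.7% of all named genes. Its median was 0.08 without HFD replicate 1 and 0.26 without HFD replicate 2. TAP1, which pumps peptides towards MHC class I, had signals of 7.29, 6.74 and 6.81 in HFD+EV, against 6.05 and 6.32 in HFD, a difference of 0.76 ± 0.19 (limma adjusted p = 0.564). CXCL10, an interferon-induced chemokine that draws T cells, had signals of 6.07, 4.74 and 4.15 in HFD+EV, against 3.87 and 3.83 in HFD, a difference of 1.13 ± 0.43 (limma adjusted p = 0.894). The groups did not overlap for either gene, and HFD+EV replicate 1 was the highest array for both. The list of chemokines and cytokines that holds CXCL10 had 9 genes higher and 9 lower, with a median of 0.01. Outside the naming rule, the groups overlapped for its members CXCL9 (-0.28) and CXCL11 (0.05).

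Markers of most immune cell types overlapped between the groups. The T and NK cell markers, 4 of 5 listed genes tested, averaged 4.78, 4.71 and 4.72 in HFD+EV, against 4.64 and 4.83 in HFD. The macrophage markers, 3 of 5, averaged 5.54, 5.67 and 5.81 in HFD+EV, against 5.61 and 5.75 in HFD, so the groups overlapped for both lists. Markers of dendritic and plasmacytoid cells were 2 of 3 tested and averaged 6.61, 6.44 and 6.72 in HFD+EV, against 6.55 and 6.64 in HFD, which also overlapped. Both B cell markers tested were higher, and CD79B, a part of the B cell receptor, had signals of 4.63, 4.30 and 4.34 in HFD+EV, against 3.81 and 3.98 in HFD (difference 0.53). The part of these cells in the interferon values was not tested.

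Cardiac stress and fetal genes were lower in HFD+EV. All 19 listed genes that were tested had a lower mean, with a median log2 difference of -0.67, and the arrays were apart for 6, against 12.3% of all named genes. The list held 23 symbols, of which 20 were on the array and 1 (UCHL1) fell below the filter. Like the interferon list, it was chosen with earlier results of these data known, so its counts are descriptions. None passed the adjusted threshold, and 7 had an unadjusted p under 0.05, against 3.34% of all named genes. The mean over the 19 genes was 7.84, 8.08 and 8.59 on the HFD+EV arrays, against 8.74 and 9.08 on the HFD arrays. The normal diet means were 7.98, 8.21 and 8.28 in ND+EV, against 7.87, 8.37 and 8.50 in ND, so they overlapped those of HFD+EV, and for 0 of the 19 genes did the HFD+EV arrays lie below all 8 others (0.709% of all named genes). HFD+EV replicate 3 lay close to HFD replicate 1, and the median was -0.45 against HFD replicate 1 alone and -0.69 against replicate 2 alone. Without HFD replicate 2, 17 of the 19 were lower and 10 were apart (25.7% of all named genes).

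The 6 stress genes whose arrays were apart were XIRP2, FLNC, ANKRD1, SYNPO2L, CRYAB and MYL7. The groups overlapped for other muscle structural genes of the list, among them XIRP1 (-0.84), CSRP3 (-0.67), MYOT (-0.41) and FHL2 (-0.08). XIRP2, a Xin-repeat protein that binds actin filaments where heart cells join, had signals of 5.30, 6.48 and 7.17 in HFD+EV, against 7.80 and 8.72 in HFD, a difference of -1.94 ± 0.52 (limma adjusted p = 0.623). FLNC, the muscle filamin that crosslinks actin at the Z-disc, had signals of 8.02, 8.76 and 8.97 in HFD+EV, against 9.30 and 9.85 in HFD, a difference of -0.99 ± 0.26 (limma adjusted p = 0.623). ANKRD1, a stretch-responsive repressor in cardiac muscle, had signals of 10.66, 10.94 and 11.44 in HFD+EV, against 11.70 and 11.64 in HFD, a difference of -0.66 ± 0.24 (limma adjusted p = 0.846). In each of these the lowest array was HFD+EV replicate 1 and the highest HFD+EV array was replicate 3. SYNPO2L (-0.90) and CRYAB, a small heat shock protein of muscle (-0.71), showed the same order.

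The natriuretic peptides overlapped between the groups. NPPB, the B-type peptide released by stretched muscle, had signals of 5.92, 5.40 and 8.53 in HFD+EV, against 7.69 and 9.68 in HFD, a difference of -2.07 ± 1.27 (limma adjusted p = 0.915). NPPA, the atrial peptide, had signals of 6.82, 6.29 and 7.40 in HFD+EV, against 7.15 and 9.27 in HFD, a difference of -1.38 ± 0.65 (limma adjusted p = 0.904). HFD replicate 2 was the highest array for both, HFD+EV replicate 3 exceeded HFD replicate 1, and without HFD replicate 2 the differences were -1.08 for NPPB and -0.32 for NPPA.

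Markers of atrial muscle moved with this list, which shares 3 genes with it. All 5 atrial markers were lower, with means of 5.87, 5.93 and 6.14 in HFD+EV, against 6.46 and 7.55 in HFD. Their median difference was -0.26 against HFD replicate 1 alone and -1.12 against replicate 2 alone. SLN, the atrial regulator of the calcium pump, had signals of 3.94, 3.77 and 3.73 in HFD+EV, against 3.77 and 6.73 in HFD, so only HFD replicate 2 was high, and the difference of -1.44 was 0.04 without it. MYL7, the atrial myosin light chain, was high on both HFD arrays, with signals of 7.40, 7.68 and 6.88 in HFD+EV, against 9.18 and 8.44 in HFD (difference -1.49 ± 0.61, limma adjusted p = 0.895). The 16 stress genes outside the atrial list had a median of -0.67, and the part of atrial tissue in the remaining values was not tested.

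**Figure D2:**
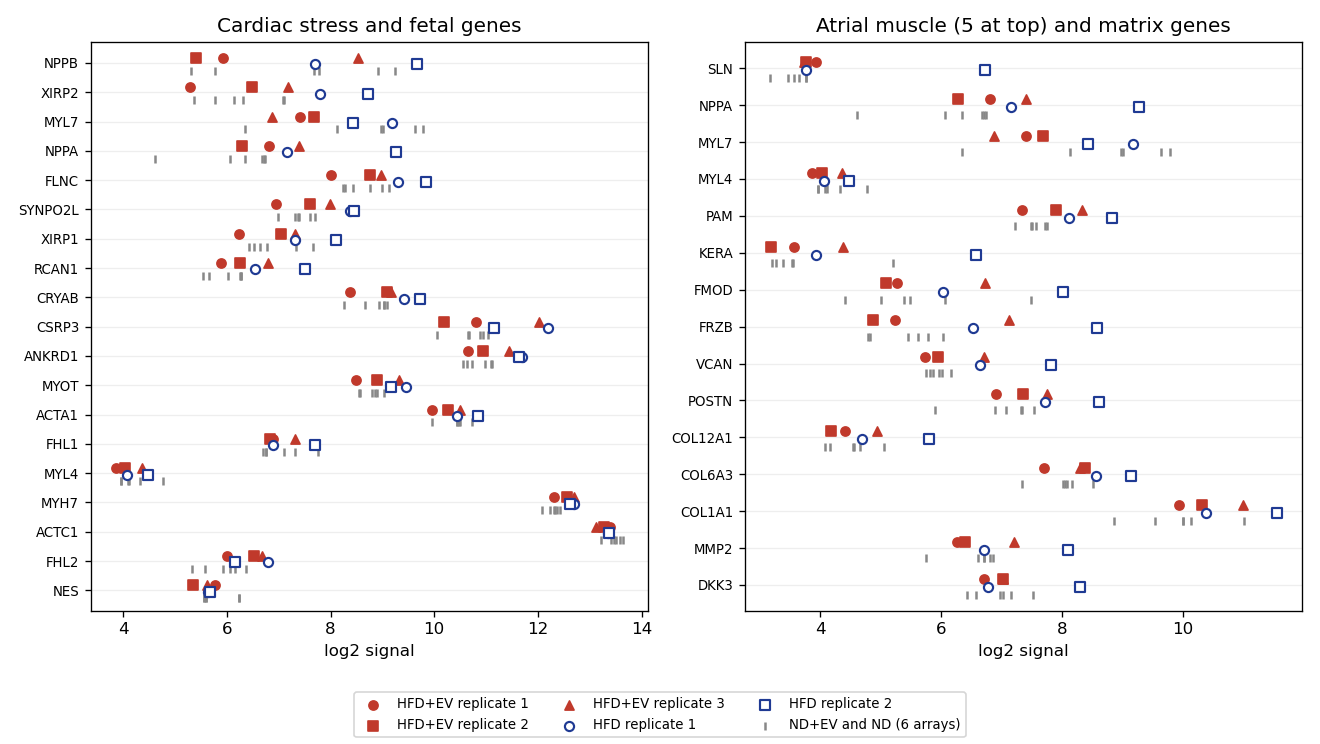
Log2 signal (x axis) of the 19 cardiac stress and fetal genes (left) and of the 5 atrial muscle markers and 10 matrix genes (right); red symbols are HFD+EV arrays, open blue symbols HFD arrays, grey ticks the 6 ND+EV and ND arrays. XIRP2 and FLNC have both HFD arrays to the right of all red symbols, while for SLN and KERA HFD replicate 2 lies apart from HFD replicate 1.

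Genes of fibrillar collagen and matrix were lower mainly against HFD replicate 2. Of 23 tested, 19 were lower with a median of -0.21, which was -0.06 against HFD replicate 1 alone and -0.57 against replicate 2 alone, and 4 were apart, against 12.3% of all named genes. VCAN, the large proteoglycan versican, had signals of 5.73, 5.95 and 6.72 in HFD+EV, against 6.64 and 7.81 in HFD, a difference of -1.10 ± 0.33 (limma adjusted p = 0.716). HFD+EV replicate 3 lay above HFD replicate 1 for it, and the difference was -0.51 without HFD replicate 2. COL1A1, the main fibrillar collagen chain, had signals of 9.93, 10.31 and 10.997 in HFD+EV, against 10.38 and 11.55 in HFD (difference -0.55 ± 0.55, limma adjusted p = 0.963), so the groups overlapped, and the difference was 0.03 without HFD replicate 2. The fibroblast markers averaged 9.69, 10.13 and 10.41 in HFD+EV, against 10.05 and 10.54 in HFD, and their part in the matrix values was not tested.

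Some of these genes were also among those that differed most between the HFD arrays. The 6 genes highest in HFD replicate 2 relative to replicate 1 were NPPA, NPPB, SLN, FMOD, FRZB and KERA, the last 3 being fibromodulin, a secreted Wnt antagonist and keratocan. FRZB had signals of 5.24, 4.87 and 7.13 in HFD+EV, against 6.54 and 8.58 in HFD, and KERA had 3.57, 3.18 and 4.38 in HFD+EV, against 3.93 and 6.57 in HFD. The 6 genes lowest in HFD replicate 2 relative to replicate 1 were ASB11, BMPR1B, DHRS7C, KCNIP2, LNP1 and TENM2. KCNIP2, a subunit of the transient outward potassium channel, had signals of 6.73, 7.18 and 6.90 in HFD+EV, against 8.11 and 6.64 in HFD, and its difference was -1.17 without HFD replicate 2 and 0.29 without replicate 1. The genes of both groups were chosen for the difference between the HFD arrays, so these values describe that choice.

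Heat shock genes were lower as well, with 18 of 20 lower, a median of -0.295 and 7 apart, against 12.3% of all named genes. HSPB2, a small heat shock protein of muscle, had signals of 5.597, 6.08 and 5.998 in HFD+EV, against 6.79 and 6.59 in HFD, a difference of -0.80 ± 0.29 (limma adjusted p = 0.851). The median was -0.31 against HFD replicate 1 alone, -0.39 against replicate 2 alone, and -0.13 without HFD+EV replicate 1. Genes of the unfolded protein response had 17 of 24 lower with a median of -0.24, which was -0.01 against HFD replicate 1 alone.

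The list of genes that make and grow vessels had a median difference near that of all named genes in HFD+EV against HFD. Of 34 listed, 26 were on the array and tested: 10 were higher and 16 lower. This is 61.5% lower, against 54% of all named genes, with a median of -0.04, against -0.02. The list's median was -0.15 without HFD replicate 1, -0.15 without HFD+EV replicate 2 and 0.01 without HFD+EV replicate 1, so its sign turned in the last case. The arrays were apart for 1 higher gene of the 26, ANGPT1, against 10.7% of all named genes. Apart and lower were 7 of the 26, a larger share than the 12.3% of all named genes. These 7 were VEGFA, FGF1, FGFR1, EPAS1, CXCL12, CXCR4 and MET. VEGFA, the main ligand of vessel growth, had signals of 9.51, 9.33 and 9.41 in HFD+EV, against 9.66 and 9.55 in HFD, a difference of -0.19 ± 0.21 (limma adjusted p = 0.972). The groups did not overlap, but the difference was below its own SE. FGF1, a fibroblast growth factor, had signals of 6.13, 6.12 and 6.14 in HFD+EV, against 6.39 and 6.70 in HFD, a difference of -0.42 ± 0.14 (limma adjusted p = 0.774).

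CXCR4, the receptor of the chemokine CXCL12, had signals of 4.51, 4.52 and 4.66 in HFD+EV, against 4.71 and 5.42 in HFD, a difference of -0.50 ± 0.19 (limma adjusted p = 0.877). For CXCR4 only HFD replicate 2 was clearly high, HFD replicate 1 lay next to HFD+EV replicate 3, and the difference was -0.15 without HFD replicate 2. The ligand CXCL12 differed by -0.26. FGF2, another growth factor of endothelium, was higher in HFD+EV by 0.25, and its difference ran from -0.20 without HFD replicate 1 to 0.69 without HFD replicate 2. The receptors FLT1 (-0.03), TEK (0.05), KDR (-0.21) and NRP1 (0.14) had differences below 0.25 in size. The probe sets of KDR pointed in opposite directions, and FLT1 ran from -0.19 to 0.12 with 1 array left out. The receptors FGFR1 (-0.37) and FLT4 (-0.31) were lower by more, with the arrays apart for FGFR1 and overlapping for FLT4. Endothelial markers averaged 7.14, 7.44 and 7.21 in HFD+EV, against 7.23 and 7.43 in HFD.

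**Figure D3:**
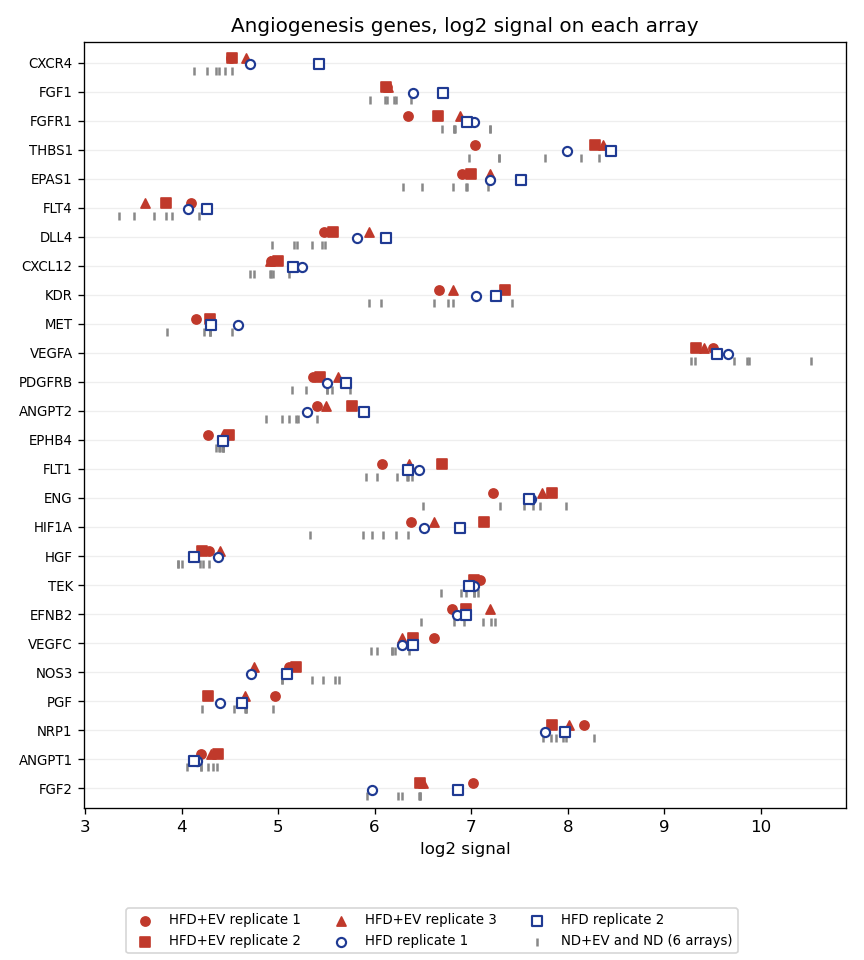
Log2 signal (x axis) of the 26 angiogenesis genes tested, ordered by their difference; red symbols are the 3 HFD+EV arrays, open blue symbols the 2 HFD arrays, grey ticks the 6 ND+EV and ND arrays. Most genes overlap between the groups, and CXCR4 and FGF1 at the top have all red symbols to the left of both blue ones.

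The lists of energy metabolism differed in direction, while over all named genes 46% were higher and 54% lower. All 15 genes of the TCA cycle were lower (median -0.16), but the median was -0.01 without HFD+EV replicate 1. All 13 genes of mitochondrial import and dynamics were lower (-0.15), as were 15 of 17 of glycolysis (-0.18). The genes apart and lower in these lists numbered 2 (TCA cycle), 3 (import and dynamics) and 5 (glycolysis), against 12.3% of all named genes. HK2, a hexokinase of the first glycolytic step, had signals of 3.43, 3.86 and 3.89 in HFD+EV, against 4.23 and 4.16 in HFD, a difference of -0.47 ± 0.16 (limma adjusted p = 0.774). These signals were low, and HFD+EV replicate 1 lay below 3.63, the mean signal under which probe sets were left out. Genes of the respiratory chain encoded in the nucleus had 28 of 35 lower (median -0.15) and 6 apart and lower, against the same 12.3%. Their median was 0.11 without HFD+EV replicate 1. Fatty acid oxidation had 12 of 20 higher (0.04), the mitochondrially encoded subunits 7 of 8 higher (0.12, and 0.02 without HFD+EV replicate 1), and breakdown of ketones and branched-chain amino acids 7 higher and 8 lower (-0.02).

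Among the lists of protein and membrane turnover, autophagy and lysosome had 19 of 22 lower (-0.12) and 7 apart, against 12.3% of all named genes, and the median was -0.05 without HFD+EV replicate 1. Exosome biogenesis, the cell's own vesicle machinery, had 19 of 21 lower (-0.12) with 5 apart, against the same 12.3%. Its median was -0.04 against HFD replicate 1 alone, -0.27 against replicate 2 alone and -0.03 without HFD+EV replicate 1. RRAGC, a small GTPase of amino acid sensing at the lysosome, had signals of 4.49, 4.73 and 4.75 in HFD+EV, against 5.15 and 4.99 in HFD (difference -0.41 ± 0.14, limma adjusted p = 0.774). STAM, an endosomal sorting protein, had signals of 6.93, 6.74 and 6.96 in HFD+EV, against 7.27 and 7.28 in HFD (difference -0.40 ± 0.15, limma adjusted p = 0.859).

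Over the 41 pathway lists, 26 had a median below 0 and 15 above it, and 2 had a median of at least 0.3 in size, the interferon list and the cardiac stress list. The differences of the remaining lists lay between them, as the plot of the list medians shows. Across all probe sets the log2 difference correlated with mean signal (r = -0.157), so brighter probe sets tended to be lower in HFD+EV.

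**Figure D4:**
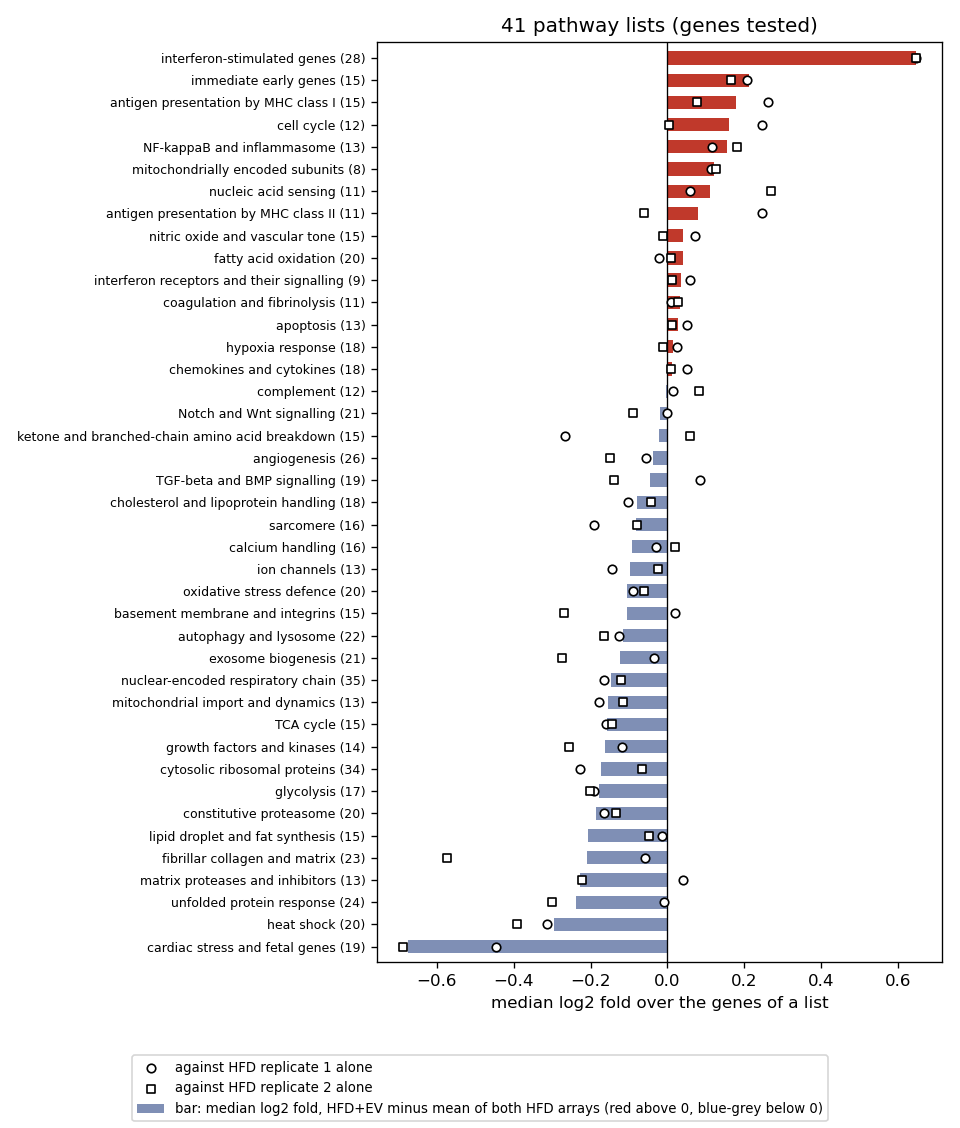
Median log2 difference, HFD+EV minus HFD (x axis), over the tested genes of 41 pathway lists (y axis, number of genes in brackets); bars use the mean of both HFD arrays, circles HFD replicate 1 alone and squares replicate 2 alone. Interferon-stimulated genes (0.65) and cardiac stress and fetal genes (-0.67) are the ends of the plot, and for fibrillar collagen the square lies far from the circle.

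Beyond the lists, the genes with the smallest unadjusted p among those apart at a fold of at least 1.5 were taken, 12 in each direction. The 12 higher ones held 5 genes of the interferon list (ISG12(A), MX2, LGALS9, IFIT1 and UBA7). They also held ABCA1, the cholesterol exporter, with signals of 6.23, 6.74 and 6.65 in HFD+EV, against 5.84 and 5.81 in HFD, a difference of 0.71 ± 0.16 (limma adjusted p = 0.564). FHL5, a LIM domain protein, had signals of 5.27, 5.30 and 5.10 in HFD+EV, against 4.50 and 4.13 in HFD, a difference of 0.91 ± 0.15 (limma adjusted p = 0.341). The remaining 5 were C4H8orf37, MIR181A-2, CDHR4, CLEC1B, a receptor of platelets, and KIAA1671, with differences from 0.63 to 1.07.

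The 12 lower genes were led by PCP4L1, a small protein related to the calmodulin regulator PCP4. It had signals of 4.65, 4.56 and 4.57 in HFD+EV, against 5.80 and 6.70 in HFD, a difference of -1.66 ± 0.25 (limma adjusted p = 0.341). TRAPPC4, a subunit of a complex that tethers transport vesicles, had signals of 6.07, 5.80 and 5.81 in HFD+EV, against 6.61 and 6.90 in HFD, a difference of -0.86 ± 0.16 (limma adjusted p = 0.427). CASQ1, a calcium-binding protein of the sarcoplasmic reticulum, had signals of 5.002, 5.07 and 6.10 in HFD+EV, against 6.72 and 6.55 in HFD, a difference of -1.24 ± 0.28 (limma adjusted p = 0.564). The others were GNB5, SNX24, TSPYL4, EFNB1, PDIA2, SEPT6, CLDN12, IL10RA, the interleukin-10 receptor chain, and TSPAN17, with differences from -1.30 to -0.68.

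For the higher and the lower genes, the plot with the normal diet arrays shows which arrays stood out. Both sets were chosen as apart, so in them only the place of the normal diet arrays was left free. Of the 12 higher genes, 8 had the 3 HFD+EV arrays above all 8 others, and 3 (FHL5, MIR181A-2 and CLEC1B) had both HFD arrays below all 9 others. Of the 12 lower genes, none had the HFD+EV arrays below all 8 others, and all 12 had both HFD arrays above all 9 others. Over the 109 named genes that were apart and at least 1.5-fold lower, 83 had both HFD arrays above all 9 others and 1 had the HFD+EV arrays below all 8 others. Over the 83 that were higher by the same rule, 33 had both HFD arrays below all 9 others and 27 had the HFD+EV arrays above all 8 others. Of the 1202 named genes apart and lower at any fold, 576 had both HFD arrays above all 9 others. Of these 1202, 69 had the HFD+EV arrays below all 8 others. Of the 1046 apart and higher, 420 had both HFD arrays below all 9 others and 110 had the HFD+EV arrays above all 8 others. Among all 9738 named genes, apart or not, these shares were 5.91%, 0.709%, 4.31% and 1.13% in that order. The count of genes beyond all other arrays was chosen after the values were seen, HFD holds fewer arrays than HFD+EV, and it was not tested.

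**Figure D5:**
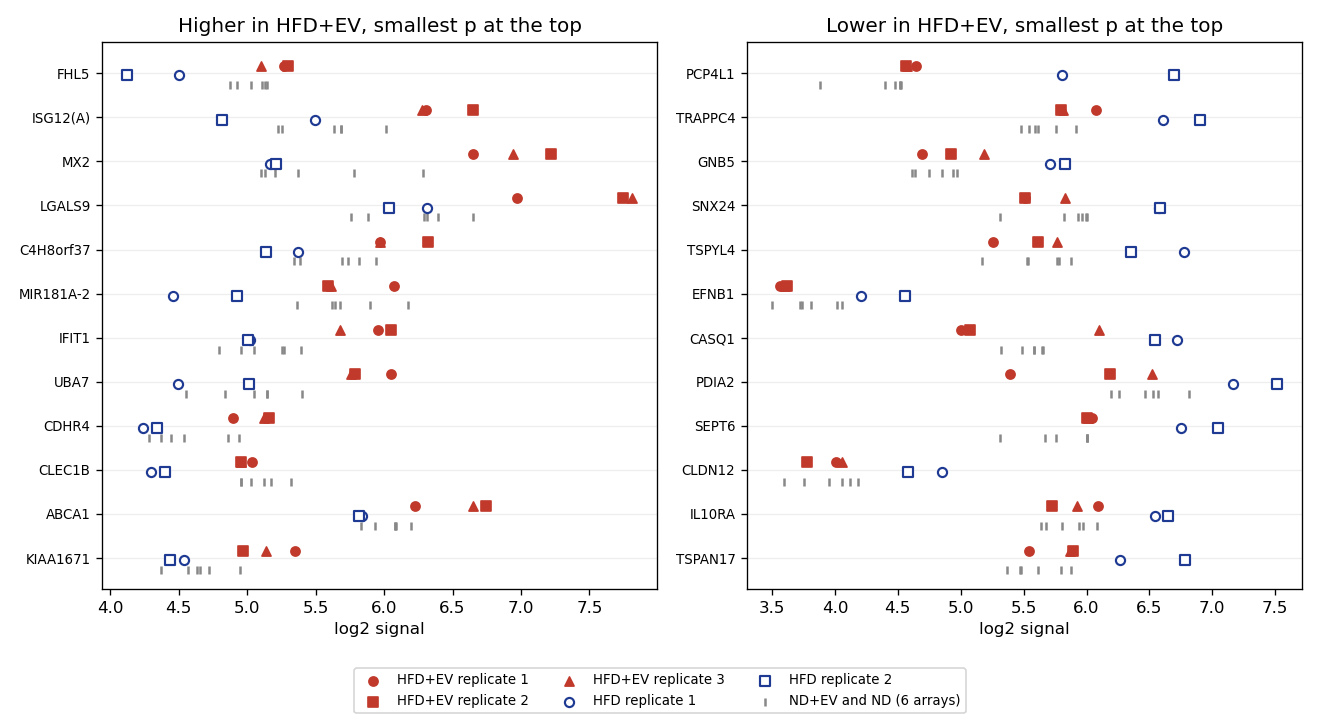
Log2 signal (x axis) of the 12 higher (left) and 12 lower (right) genes with the smallest p; red symbols are HFD+EV arrays, open blue symbols HFD arrays, grey ticks the 6 ND+EV and ND arrays. On the right both blue symbols lie above all red symbols and ticks for each gene, while on the left the red symbols of MX2 and LGALS9 lie above all others.

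The widest gap between the nearest arrays of the groups was that of UBAP1, a subunit of the ESCRT-I complex that sorts membrane proteins. It had signals of 2.84, 3.44 and 3.21 in HFD+EV, against 5.83 and 6.32 in HFD, a difference of -2.91 ± 0.82 (limma adjusted p = 0.653). All 3 HFD+EV signals lay below 3.63, the mean signal under which probe sets were left out. On the normal diet UBAP1 ranged just as widely within a group, with signals of 5.33, 3.001 and 3.27 in ND+EV, against 3.04, 4.74 and 6.17 in ND. UQCR10, a subunit of respiratory complex III, had signals of 8.76, 10.13 and 9.46 in HFD+EV, against 7.25 and 7.55 in HFD, a difference of 2.05 ± 0.51 (limma adjusted p = 0.575). On the normal diet it had 9.23, 9.10 and 9.45 in ND+EV, against 7.33, 9.10 and 7.27 in ND, so low signals occurred in both vehicle groups. ATN1, FAM163A and NANOG were the other genes that this measure added among the higher ones, with differences of 0.97, 1.21 and 0.99.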

How the data were processed

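Total RNA from ischemic left ventricle (50 ng per sample) was labelled and hybridised to Affymetrix whole-transcript arrays, per the labels' protocols. Transcriptome Analysis Console is the tool that the submitters' processing notes give, without a version. The authors deposited log2 signal per probe set for 27558 probe sets. How probes were summarised and which genome build was used is not given in the sources used here, and coordinates are left out. The number of arrays limits the precision. The platform annotation, which can be old, named 1 gene for 13157 probe sets, more than 1 for 523 and no gene for 13878. Gene IDs of 12841 probe sets were found in a current table, and 7 symbols changed. In the table, 1239 probe sets share all values with another.

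Probe sets in the lowest 25% of mean signal (below 3.63) were left out, leaving 20668. A model with 1 mean per group was fitted to all 11 arrays with limma 3.58.1 in R 4.3.3 (lmFit, eBayes, 7 residual and 3.62 prior degrees of freedom). HFD+EV minus HFD and its difference from ND+EV minus ND were tested (two-sided). P-values were adjusted over all probe sets by Benjamini-Hochberg, with a threshold of 0.05. A gene is given by its probe set of highest mean signal. The functions were tested on simulated data.

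Members and lists (41 pathways, 17 cell types) were chosen with earlier results of these data known. Genes named were those with the smallest p among genes apart at 1.5-fold (up to 12 in each direction), those with the widest gaps (up to 10), the 4 smallest p of each list, all members of 3 lists, cell type markers, and those that differ most between the HFD arrays (6 in each direction). Uncharacterised loci were counted and not named. Alternatives changed the arrays fitted, normalization, filter, weights, block, prior variance and probe set choice.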

Additional observations from a re-analysis of the deposited data

How the results depend on the processing

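No probe set passed the threshold with the settings of the report or in any alternative other than leaving out 1 array, which gave 0 to 1. The exceptions were SLN without HFD replicate 1 (-2.92, limma adjusted p = 0.00441) and CASQ1 without HFD+EV replicate 3 (-1.59, limma adjusted p = 0.0381). With an array left out of HFD, the lone HFD array is assumed to vary like the other groups. Unadjusted p-values under 0.05 numbered 1146, and 786 to 1719 over the alternatives. Named probe sets apart and at least 1.5-fold higher numbered 93, and 93 to 167 with 1 array left out, with 148 and 167 when HFD replicates 1 and 2 were left out. The lower ones numbered 114, and 71 to 429 with 1 array left out: 71 without HFD+EV replicate 1, 202 and 287 without replicates 2 and 3, 429 and 219 without HFD replicates 1 and 2. Array weights gave 75 and quantile normalization 72. Of list medians of at least 0.1 in size, 7 values turned sign: NF-kappaB and inflammasome (-0.080 to 0.26 with 1 array left out, lowest without HFD+EV replicate 1), basement membrane (-0.27 to 0.020) and matrix proteases (-0.31 to 0.042), both highest without HFD replicate 2, immediate early genes (-0.033 to 0.35, lowest without HFD+EV replicate 3), the nuclear-encoded respiratory chain (-0.31 to 0.11) and the proteasome (-0.29 to 0.014), both highest without HFD+EV replicate 1, and the respiratory chain with array weights (0.016). The cause was not tested. Of 836 alternative values of 44 list medians, 798 moved by less than 1 SD between arrays, 31 moved by more, and 47 had the other sign, most of these for medians under 0.1. Of 5646 alternative values of the 271 genes covered by the naming rule, 5644 kept their side of the threshold and 95 had the other sign. The next counts were chosen after seeing the data. Interferon-stimulated genes that were apart numbered 25 when HFD replicate 2 was left out and 23 when HFD+EV replicate 1 was. All 28 were higher in both. With fewer arrays any gene is more easily apart. The share of all named genes apart and higher rose from 10.7% to 23.8% and 16.3%, in the same order. Cardiac stress genes that were apart numbered 10 and 8 in that order. For all named genes, the share apart and lower rose from 12.3% to 25.7% and 18.1%. The rises in the list counts are therefore not read as stronger results. Without ND replicates 1 and 3, 1 cardiac stress gene lay below all other arrays. With the replicate number as a block, 0 probe sets passed, 1661 had an unadjusted p under 0.05 and 166 named probe sets were apart and lower. Deviations of same-numbered arrays correlated at 0.0245 (HFD+EV 1 with HFD 1) and -0.103 (HFD+EV 2 with HFD 2) in the groups compared. With the normal diet arrays, which the fit also holds, the highest were 0.335 (HFD+EV 1 with ND 1), 0.245 (HFD+EV 2 with ND 2) and 0.199 (ND+EV 2 with ND 2). Not every pair was above 0.1, so the numbers were not taken as pairs. The spread of the HFD group rests on 2 arrays.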

Other observations

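Several single genes outside the groups above were apart. STC1, a secreted glycoprotein induced by low oxygen, had signals of 8.15, 8.53 and 7.67 in HFD+EV, against 7.18 and 7.31 in HFD, a difference of 0.87 ± 0.22 (limma adjusted p = 0.564). The hypoxia list as a whole had 10 of 18 genes higher and a median of 0.02. STC1 was the 1 gene of that list apart and higher (10.7% of all named genes), and 3 were apart and lower (12.3%). TXN2, the mitochondrial thioredoxin, had signals of 6.78, 6.81 and 6.91 in HFD+EV, against 7.43 and 7.88 in HFD, a difference of -0.83 ± 0.22 (limma adjusted p = 0.623), and its HFD+EV arrays lay below all 8 others. WT1, a transcription factor of epicardium, had signals of 5.35, 5.48 and 5.76 in HFD+EV, against 4.77 and 5.04 in HFD, a difference of 0.62 ± 0.21 (limma adjusted p = 0.777). Within lipid handling, OLR1, a receptor for oxidised lipoprotein, was lower (-0.78), and ACSL1, which activates fatty acids, was higher by 0.40 with all 3 HFD+EV arrays above every other array.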
